A study of Drosophila melanogaster with 63 samples.

Results

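Transcripts of 4 genes of the Hairy and Enhancer of split (E(spl)) family, hry (hairy), E(spl)m5-HLH, E(spl)m7-HLH and E(spl)mdelta-HLH, were followed in Drosophila melanogaster embryos. The genes were chosen with earlier results of these data known and were found by their symbols in the deposited table. Array rows of the same symbol were averaged per array. All 4 were measured on every array, and they are 4 of the 9292 named genes and 12424 features of the table. E(spl)m5-HLH, E(spl)m7-HLH and E(spl)mdelta-HLH each rested on 1 row with values and hry on 2.

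The arrays covered 3 genotypes: eve mutants, ftz mutants and wild type, eve (even skipped) and ftz (fushi tarazu) being homeodomain genes of the pair-rule class that subdivides the early embryo. The labels name the mutated gene but no allele, and both mutant stocks were kept over balancer chromosomes carrying GFP, with collected embryos sorted by genotype. Embryos of each genotype were collected 2, 3, 6, 7, 8, 9 and 10 h after egg laying, and 3 arrays per genotype and time make 63 arrays in 21 groups. On each array Cy3-labelled total RNA of a sample was set against a Cy5-labelled common reference pooled from embryos of 0 to 22 h, and values are given as the log2 of sample over reference, the likely direction. A value of 0 is therefore the level of the reference, and values of different genes are not comparable as abundances.

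Hairy and E(spl) proteins are basic helix-loop-helix repressors that carry an Orange domain and recruit the corepressor Groucho through a C-terminal motif. hairy is a primary pair-rule gene expressed in stripes in the cellularizing embryo, and it is used again later in development. The bHLH genes of the E(spl) complex are direct targets of Notch signalling, in which the cleaved receptor acts with Suppressor of Hairless. In the embryonic neuroectoderm their products repress proneural genes, so that only some cells of a proneural cluster become neuroblasts. In whole embryos, fewer cells that express a gene and less RNA per expressing cell cannot be told apart.

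The correlation of replicates across all features ran between 0.510 and 0.953 (median 0.829). The eve transcript had log2 ratios of -1.26, -1.30 and -1.04 in eve mutants at 2 h, against 0.46, 0.35 and 0.71 in wild type. At 3 h it was at 0.00, 0.13 and 0.37 in the arrays labelled eve, against -0.08, -0.15 and 0.12 in wild type. The eve transcript was thus not lower in the arrays labelled eve at 3 h, and results at that time are given as those of arrays so labelled. The ftz transcript was at 0.74, 0.52 and 0.74 in ftz mutants at 2 h, against 0.78, 0.85 and 0.84 in wild type, so that it does not check the ftz label. Genes of cellularization, 5 measured of 6 listed, had a median difference of 1.15 between the arrays labelled eve and wild type at 3 h, with 3 of the 5 passing the test as higher.

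All 4 genes changed over time in each genotype. F tests over the 7 times passed for 4 of 4 genes in eve mutants, where 54.2% of all features passed, in ftz mutants (47.4%) and in wild type (38.7%). All 4 genes also passed in each genotype with the 3 h arrays left out, a choice made after seeing the data. The span between the lowest and the highest of the 21 group means was 2.49 log2 units for E(spl)m7-HLH, 2.12 for E(spl)mdelta-HLH, 1.92 for E(spl)m5-HLH and 1.10 for hry. Of the named genes, 98.5%, 96.9%, 95.4% and 76.0%, in that order, had a smaller span. Ranked by mean, neighbouring groups mostly shared values: the arrays of adjacent groups overlapped in all 20 steps of the hry ranking and in 18 or 19 of the 20 steps of the other rankings.

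**Figure D1:**
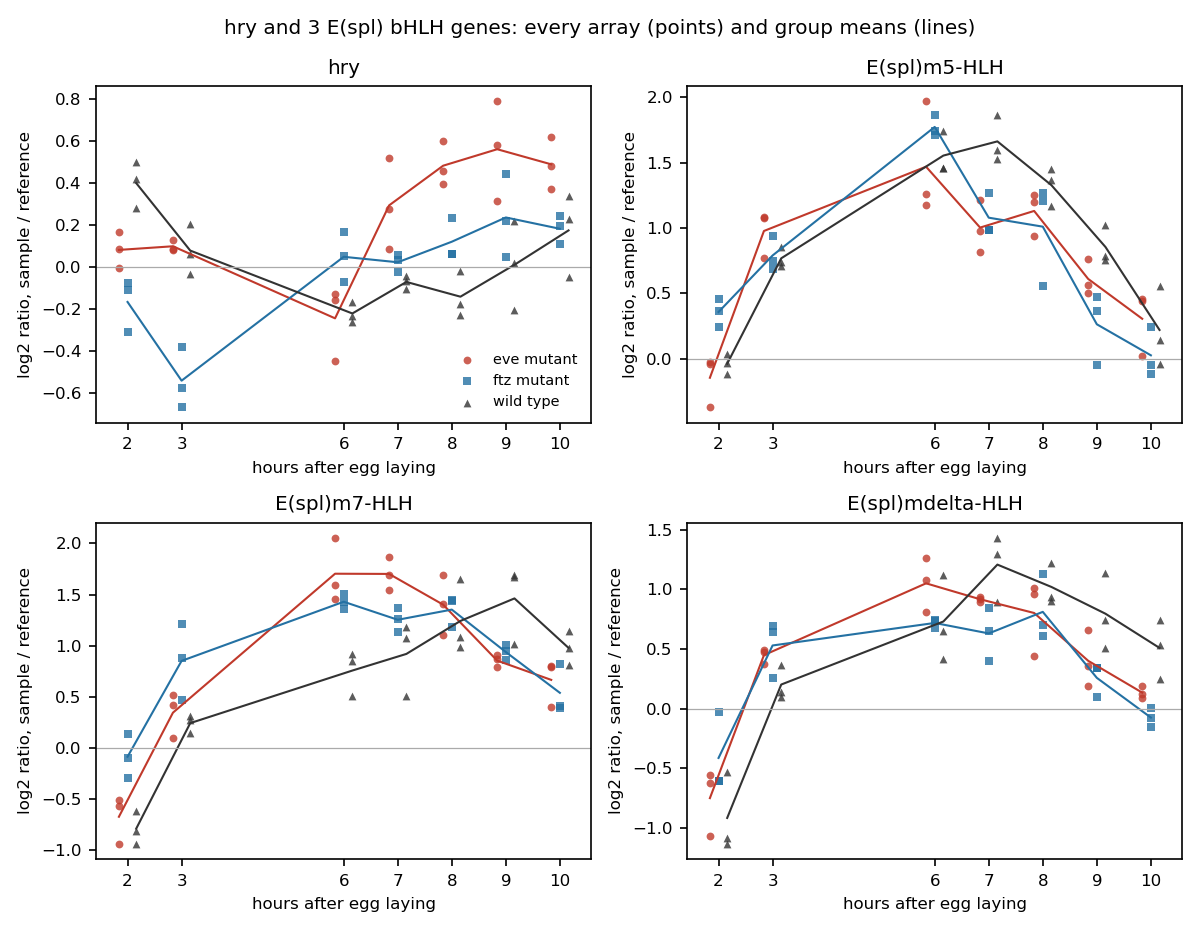
Log2 ratio of sample to reference (vertical axes) against hours after egg laying (horizontal axes) for the 4 genes. Points are single arrays, slightly offset sideways by genotype, and lines join the means of 3 arrays. The highest means of the E(spl) genes lay between 6 and 9 h and their lowest at 2 h, except that E(spl)m5-HLH in ftz mutants was lowest at 10 h, with 0.03, and hry in ftz mutants was lowest at 3 h with a mean of -0.54.

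All 3 E(spl) genes were higher in the arrays labelled eve at 3 h than in eve mutants at 2 h, and all 3 rose between these hours in wild type and 2 of the 3 in ftz mutants. These hours include the onset of gastrulation. The eve arrays of 2 h and those labelled eve at 3 h lie in different runs of slide numbers (described below). For the eve step, slide run and hour therefore cannot be told apart. In eve mutants E(spl)mdelta-HLH was at -0.56, -1.07 and -0.62 at 2 h and at 0.47, 0.50 and 0.38 in the arrays labelled eve at 3 h. In wild type it was at -1.08, -1.13 and -0.53 at 2 h and at 0.37, 0.10 and 0.14 at 3 h. All arrays of the later hour lay above all arrays of the earlier one in both genotypes. The step passed the test for all 3 genes in the arrays labelled eve (by 1.12 for E(spl)m5-HLH, 1.02 for E(spl)m7-HLH and 1.20 for E(spl)mdelta-HLH, 23.6% of features called for this step) and in wild type (by 0.81, 1.03 and 1.12 in the same order, 12.2% called). In ftz mutants E(spl)m7-HLH and E(spl)mdelta-HLH rose by 0.94 each (8.92% called), and E(spl)m5-HLH had 0.43 (SE 0.17, adjusted p = 0.107). In the limma test of whether this step differed from that of wild type, none of the 4 genes passed in the arrays labelled eve (15.9% called, 1 gene with an unadjusted p below 0.05) or in ftz mutants (0.41% called, 0 such genes).

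Between 3 and 6 h a rise passed the test for 2 of the 3 E(spl) genes in ftz mutants and for 1 in wild type. In eve mutants at 6 h, set against the arrays labelled eve at 3 h, all 4 genes passed, beside 26.2% of features: E(spl)m7-HLH was higher by 1.36, E(spl)mdelta-HLH by 0.60 and E(spl)m5-HLH by 0.49, and hry was lower (-0.34). In ftz mutants E(spl)m5-HLH rose by 0.98, hry by 0.59 and E(spl)m7-HLH by 0.58 (24.4% called). In wild type E(spl)m5-HLH alone passed the limma test, with 0.79 (7.24% called, 4 genes with an unadjusted p below 0.05). There E(spl)m7-HLH had 0.51 (adjusted p = 0.0835) and E(spl)mdelta-HLH 0.53 (adjusted p = 0.069), both short of the threshold. Of these eve calls only that of E(spl)m7-HLH survived each omission of a replicate, and with slide runs in the model E(spl)m5-HLH had -0.10. Without ftz replicate 2 or 3 the ftz call of E(spl)m7-HLH ended, as did that of E(spl)m5-HLH in wild type without wt replicate 2. Neither the ftz arrays nor the arrays labelled eve shared a run of slide numbers (described below) between 3 and 6 h. Slide run and hour therefore cannot be told apart in the ftz and eve steps.

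Between 6 and 8 h E(spl)m5-HLH fell by 0.76 in ftz mutants (SE 0.17, adjusted p = 0.0246), where 0.282% of features were called, although not without ftz replicate 1 or 2. In wild type none of the 4 genes passed the limma test for that step (2.11% called, 1 gene with an unadjusted p below 0.05).

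Between 8 and 10 h E(spl)m5-HLH fell by 0.83 in eve mutants (1.01% of features called), by 0.98 in ftz mutants (4.3% called) and by 1.11 in wild type (3.69% called). E(spl)m7-HLH fell by 0.74 in eve mutants and by 0.81 in ftz mutants, and its difference of -0.26 in wild type missed the threshold (adjusted p = 0.51). E(spl)mdelta-HLH fell by 0.89 in ftz mutants, with -0.67 in eve mutants (adjusted p = 0.0582) and -0.51 in wild type (adjusted p = 0.112). Left out one at a time, eve replicate 1 and eve replicate 3 each ended both eve calls, and ftz replicate 3 ended the ftz calls of E(spl)m7-HLH and E(spl)mdelta-HLH.

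The hour of the highest mean differed between genotypes for some genes. E(spl)m7-HLH had its highest mean at 6 h in eve mutants (1.70 ± 0.31, SD, n = 3) and in ftz mutants (1.43 ± 0.07), and at 9 h in wild type (1.46 ± 0.38). E(spl)m5-HLH was highest at 6 h in eve (1.47 ± 0.44) and ftz mutants (1.77 ± 0.08) and at 7 h in wild type (1.66 ± 0.18). E(spl)mdelta-HLH was highest at 6 h in eve mutants (1.05 ± 0.23), at 8 h in ftz mutants (0.81 ± 0.28) and at 7 h in wild type (1.21 ± 0.28). Means at neighbouring hours lay within these SDs in many cases, and the hour itself was not tested.

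hry was higher in eve mutants than in wild type over 6 to 10 h, and lower in ftz mutants than in wild type at 2 and 3 h. At 8 h hry had log2 ratios of 0.60, 0.45 and 0.39 in eve mutants and 0.06, 0.23 and 0.06 in ftz mutants, against -0.23, -0.02 and -0.18 in wild type. At 9 h it had 0.58, 0.79 and 0.31 in eve mutants and 0.44, 0.22 and 0.05 in ftz mutants, against 0.02, 0.22 and -0.21 in wild type. Every eve array lay above every wild type array at 7, 8, 9 and 10 h and not at 6 h, although at 10 h the difference of 0.31 missed the threshold (adjusted p = 0.082). At 10 h none of the 4 genes passed the limma test against wild type in eve mutants (7.98% called, 2 genes with an unadjusted p below 0.05). Averaged over 6, 7, 8, 9 and 10 h, hry was at 0.32 in eve mutants and -0.05 in wild type (15 arrays each), a difference of 0.37 (SE 0.05, adjusted p = 1.99e-07) or 1.29-fold. Of the 4 genes 2 passed in this comparison, hry and E(spl)m5-HLH, beside 39.4% of all features.

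At single times hry was higher in eve mutants by 0.62 at 8 h (SE 0.12, adjusted p = 0.000407) and by 0.55 at 9 h (SE 0.12, adjusted p = 0.00168), where 5.43% and 8.7% of features were called. At 7 h the difference was 0.36 (adjusted p = 0.0356), and each of 5 of the 6 replicates, left out in turn, ended that call. Within eve mutants hry rose by 0.73 between 6 and 8 h (SE 0.12, adjusted p = 3.4e-05), a step in which 4.56% of features were called. Between the mutants hry was higher in eve than in ftz by 0.19 over 6 to 10 h (SE 0.05, adjusted p = 0.00272, 36% called). That difference was 0.05 with runs of slide numbers in the model (adjusted p = 0.692) and 0.15 without eve replicate 1 (adjusted p = 0.0518).

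In ftz mutants the averages over 6 to 10 h were 0.12 for hry, against -0.05 in wild type. The difference of 0.17 (SE 0.05, adjusted p = 0.00659) was among 3 of 4 genes called in this comparison, beside 40.4% of all features. It was 0.14 without wt replicate 1 (adjusted p = 0.0629). The ftz mean was the higher one at all 5 times, although hry passed at none of them. At 8 h none of the 4 genes passed the limma test in ftz mutants (7.65% called, 1 gene with an unadjusted p below 0.05).

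At the early times hry was lower in ftz mutants, with -0.11, -0.31 and -0.08 at 2 h and -0.67, -0.38 and -0.58 at 3 h. In wild type hry was at 0.42, 0.50 and 0.28 at 2 h and at 0.06, 0.20 and -0.03 at 3 h. The ftz and wild type arrays did not overlap at either time. The differences were -0.57 at 2 h (SE 0.12, adjusted p = 0.000984, 1.48-fold lower) and -0.62 at 3 h (SE 0.12, adjusted p = 0.000193, 1.54-fold lower). Two-sided tests across all features called 6.1% at 2 h and 13.7% at 3 h, and 2 of the 4 genes at each time, hry and E(spl)m7-HLH. Both hry differences passed under every alternative tried, and within ftz mutants hry fell by 0.38 between 2 and 3 h (adjusted p = 0.0295), a call that ended without ftz replicate 1 or 3, with 1 of the 2 rows of hry taken alone and when only the groups compared were fitted.

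In eve mutants at 2 h hry was at -0.01, 0.08 and 0.17, all below the wild type arrays and all above the ftz arrays. The difference of -0.32 from wild type (SE 0.12, adjusted p = 0.0407, 21.6% called) was the only one of the 4 genes past the threshold. It did not pass without eve replicate 1, eve replicate 2, wt replicate 1 or wt replicate 2, with differences of -0.27 to -0.32. In the arrays labelled eve at 3 h none of the 4 genes passed the limma test against wild type (9.57% called, 0 genes with an unadjusted p below 0.05), and hry was at 0.08, 0.08 and 0.13. Against ftz mutants at 3 h these arrays were 0.64 higher (SE 0.12, adjusted p = 0.000286, 5.35% called), with 0.75 when slide runs were in the model (adjusted p = 0.0546).

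The 2 rows of hry, with the identifiers 8399 and 17063, correlated with r = 0.457 over the 63 arrays and gave differences of unequal size. Over 6 to 10 h the eve difference was 0.21 on row 8399 (adjusted p = 0.0036) and 0.52 on row 17063 (adjusted p = 3.33e-07). The ftz difference over 6 to 10 h was 0.07 on row 8399 (adjusted p = 0.327) and 0.27 on row 17063 (adjusted p = 0.00359). The higher late level of hry in ftz mutants thus passed on row 17063 alone. Row 17063 also carried the eve differences at 8 h (0.91) and 9 h (0.90), where row 8399 had 0.34 (adjusted p = 0.13) and 0.20 (adjusted p = 0.386). Between the arrays labelled eve at 3 h and eve mutants at 6 h row 8399 had a difference of 0.24 and row 17063 one of -0.92. The rise within eve mutants between 6 and 8 h was also unequal. Row 17063 had means of -0.51 (SD 0.24) and 0.71 (SD 0.11) at these hours. Row 8399 had 0.02 (SD 0.28) and 0.25 (SD 0.16). The lower early level in ftz mutants passed on both rows, with -0.47 and -0.66 at 2 h and -0.62 on each at 3 h. At 2 h the eve difference passed on neither row (adjusted p = 0.0702 and 0.192). In wild type the test over the 7 times did not pass on row 8399 alone (F = 1.82, adjusted p = 0.21). The files do not say which part of the transcript either row reports.

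**Figure D2:**
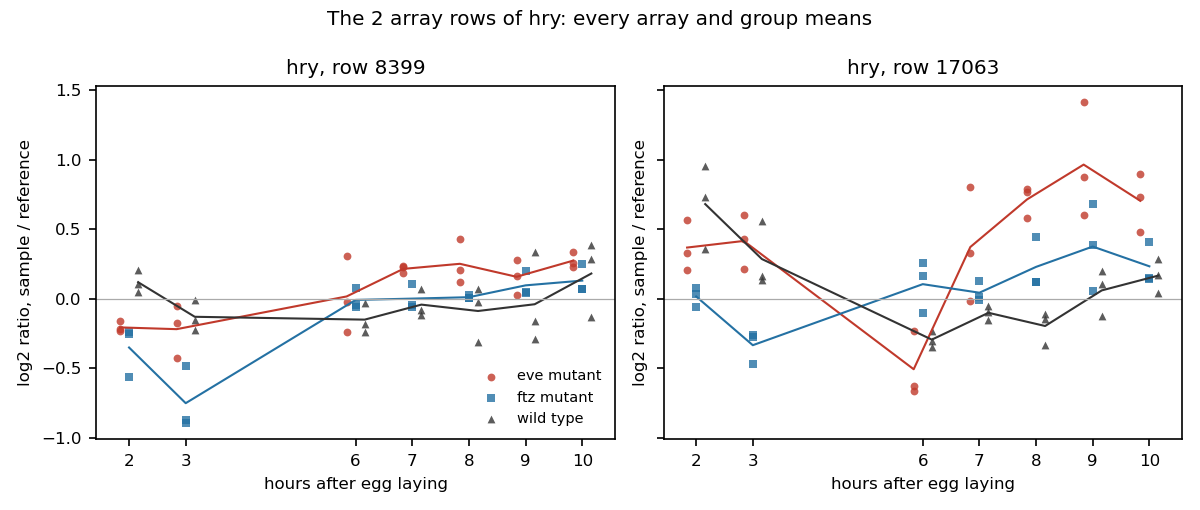
Log2 ratio of sample to reference (vertical axes) against hours after egg laying (horizontal axes) for each of the 2 array rows of hry, with single arrays as points and means of 3 arrays as lines. Row 17063 reached a mean of 0.96 in eve mutants at 9 h and row 8399 a mean of 0.16, while both rows were lowest in ftz mutants among the genotypes at 3 h.

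E(spl)m7-HLH was higher than in wild type at 6 h in both mutants and lower at 9 h in eve mutants. At 6 h it had log2 ratios of 2.06, 1.46 and 1.60 in eve mutants and 1.51, 1.42 and 1.36 in ftz mutants, against 0.92, 0.85 and 0.51 in wild type. At 9 h it had 0.91, 0.87 and 0.79 in eve mutants and 0.95, 0.86 and 1.004 in ftz mutants, against 1.69, 1.67 and 1.02 in wild type. The mutant arrays were all above the wild type arrays at 6 h and all below them at 9 h.

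In eve mutants E(spl)m7-HLH was 0.95 higher at 6 h (SE 0.19, adjusted p = 0.000761, 1.93-fold, 7.77% of features called) and 0.78 higher at 7 h (SE 0.19, adjusted p = 0.00497, 9.46% called). At 9 h it was lower, with -0.61 (SE 0.19, adjusted p = 0.0325). That call at 9 h ended without any one of 5 of the 6 replicates, eve replicates 1, 2 and 3 and wt replicates 1 and 2. In ftz mutants the differences were 0.67 at 6 h (SE 0.19, adjusted p = 0.0195, 6.42% called) and -0.52 at 9 h (SE 0.19, adjusted p = 0.0714). The ftz call at 6 h ended without any one of ftz replicates 1, 2 and 3 and wt replicate 3, with differences of 0.55 to 0.71. The eve calls at 6 and 7 h passed without each replicate.

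The change of the difference over 6 to 10 h was itself tested. It passed for E(spl)m7-HLH in eve mutants (F = 12.99, adjusted p = 0.000321, 1.42% of features called) and in ftz mutants (F = 7.44, adjusted p = 0.0168, 1.08% called), and for none of the other 3 genes. Both comparisons share the wild type arrays. The ftz test did not pass without ftz replicate 2, ftz replicate 3 or wt replicate 2 (F = 5.29 to 5.67). The average over the 5 times, which joins differences of both signs, was 0.19 in eve mutants (adjusted p = 0.0606) and 0.03 in ftz mutants (adjusted p = 0.796). The eve average passed without eve replicate 2 (0.25), without wt replicate 1 (0.28) and with 10 h left out (0.32, adjusted p = 0.00625), a choice made after seeing the data.

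E(spl)m7-HLH was also higher in ftz mutants at the early times. It had 0.14, -0.10 and -0.30 in ftz mutants at 2 h, against -0.82, -0.62 and -0.94 in wild type. At 3 h it had 1.21, 0.47 and 0.88 in ftz mutants, against 0.27, 0.15 and 0.31 in wild type. The groups did not overlap at either time, and ftz replicate 1 was the highest array at both. The differences were 0.70 at 2 h (SE 0.19, adjusted p = 0.0133) and 0.61 at 3 h (SE 0.19, adjusted p = 0.0219). Without ftz replicate 1 they were 0.59 (adjusted p = 0.109) and 0.43 (adjusted p = 0.217). The 2 h call also ended without ftz replicate 2, and the 3 h call without ftz replicate 3 or wt replicate 2 and with slide runs in the model (0.34, adjusted p = 0.364). Eve mutants at 2 h, at -0.57, -0.94 and -0.51, lay 0.59 below ftz mutants (SE 0.19, adjusted p = 0.0179, 22.6% called) and 0.12 from wild type (SE 0.19, adjusted p = 0.716). The difference between the mutants did not pass without eve replicate 2 or ftz replicate 1.

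**Figure D3:**
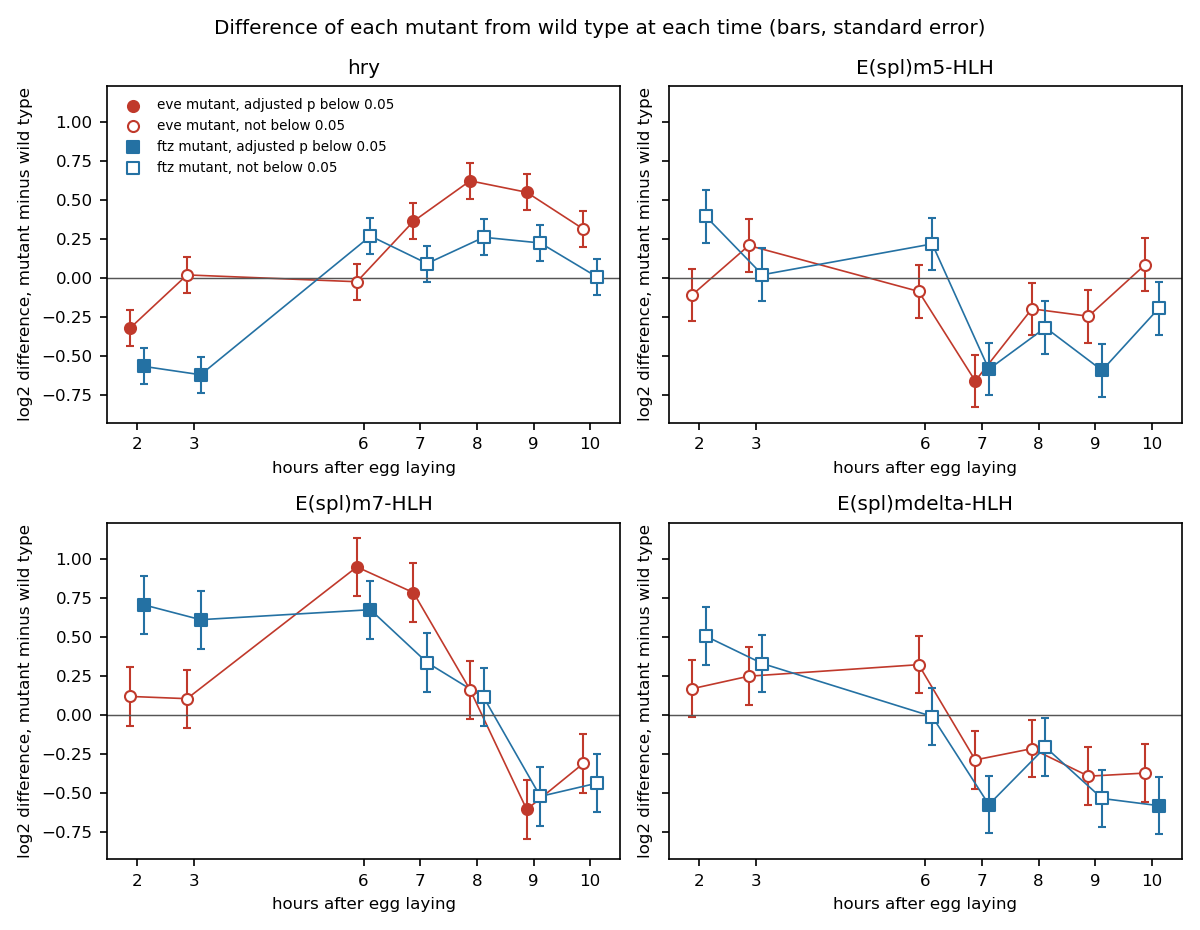
Difference of each mutant from wild type in log2 units (vertical axes) at each time (horizontal axes, hours after egg laying), with the standard error of the limma model as bars. Filled symbols had an adjusted p below 0.05. E(spl)m7-HLH was at 0.95 at 6 h and at -0.61 at 9 h in eve mutants, and hry in ftz mutants was at -0.57 and -0.62 at 2 and 3 h.

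E(spl)m5-HLH was lower than in wild type at 7 h in both mutants, at 9 h in ftz mutants and on average over 6 to 10 h in both. At 7 h it had 1.21, 0.82 and 0.98 in eve mutants and 1.27, 0.99 and 0.98 in ftz mutants, against 1.53, 1.60 and 1.86 in wild type. All 6 mutant arrays were below all 3 wild type arrays. The differences were -0.66 in eve mutants (SE 0.17, adjusted p = 0.00843) and -0.58 in ftz mutants (SE 0.17, adjusted p = 0.0218, 8.14% called). In ftz mutants E(spl)m5-HLH had -0.59 at 9 h (SE 0.17, adjusted p = 0.0195, 8.12% called). At 6 h neither mutant passed, with -0.09 in eve and 0.22 in ftz.

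Without wt replicate 3 the 7 h difference of E(spl)m5-HLH was -0.56 in eve mutants (adjusted p = 0.0606). In ftz mutants it was -0.48 to -0.62 without ftz replicate 2 or 3 or wt replicate 2 or 3, each of which ended the call. The ftz difference at 9 h did not pass without ftz replicate 3 or wt replicate 1.

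Over 6 to 10 h E(spl)m5-HLH averaged 0.90 in eve mutants and 0.83 in ftz mutants, against 1.12 in wild type. The differences were -0.22 in eve (SE 0.08, adjusted p = 0.017) and -0.29 in ftz (SE 0.08, adjusted p = 0.00157). The eve call did not pass without eve replicate 1, eve replicate 3 or wt replicate 3. At 2 h E(spl)m5-HLH was lower in eve than in ftz mutants, with -0.04, -0.37 and -0.02 against 0.46, 0.37 and 0.25. That difference of -0.50 (SE 0.17, adjusted p = 0.0247) ended without eve replicate 2, ftz replicate 1 or ftz replicate 2.

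E(spl)mdelta-HLH was lower in ftz mutants than in wild type over 6 to 10 h. Its means were 0.47 in ftz mutants and 0.85 in wild type, a difference of -0.38 (SE 0.08, adjusted p = 0.000198, 1.30-fold lower), and the ftz mean was the lower one at all 5 times. At 10 h it had -0.08, -0.15 and 0.00 in ftz mutants, against 0.53, 0.25 and 0.75 in wild type. The groups did not overlap there, and the difference was -0.58 (SE 0.18, adjusted p = 0.0351, 8.86% called). At 7 h it was also -0.58 (SE 0.18, adjusted p = 0.0404). Neither single-time call was stable to leaving out replicates, 4 of 6 ending the call at 7 h and 5 of 6 at 10 h, while the mean kept its call without each of the 6 and lost it with slide runs in the model (-0.30, adjusted p = 0.106).

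In eve mutants E(spl)mdelta-HLH averaged 0.66, against 0.85 in wild type, and the difference of -0.19 missed the threshold (SE 0.08, adjusted p = 0.0589). It passed without eve replicate 2 (-0.24, adjusted p = 0.0448) or wt replicate 3 (-0.25, adjusted p = 0.0212). No single time passed in eve mutants. E(spl)mdelta-HLH at 2 h had -0.03, -0.60 and -0.60 in ftz mutants, against -1.08, -1.13 and -0.53 in wild type, and the groups overlapped.

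Developmental age was estimated for each array of 6 to 10 h from the wild type profile of all features other than these 4 genes. On average it ran ahead of the label in both mutants, but at 10 h it lay behind. At 8, 9 and 10 h the mean estimated ages were 9.52, 9.65 and 9.72 h in eve mutants. In ftz mutants they were 9.18, 9.70 and 9.85 h, and in wild type 7.62, 8.53 and 9.47 h. The wild type profile ends at 10 h. The mean offset was 0.943 h in eve mutants and 0.987 h in ftz mutants, against -0.140 h in wild type (15 arrays each). Each mutant array was therefore also set against the wild type profile of the gene at its estimated age, as a value with no test. hry remained above that profile in eve mutants by 0.29 (SD 0.27, 12 of 15 arrays above it) and in ftz mutants by 0.07 (SD 0.13, 10 of 15). E(spl)m5-HLH, lower by label, was 0.09 above the profile in eve mutants (SD 0.37, 10 of 15 arrays above it). In ftz mutants it was 0.06 above it (SD 0.33, 9 of 15). E(spl)m7-HLH was 0.09 above it in eve mutants (SD 0.46, 8 of 15 arrays above it) and 0.03 below it in ftz mutants (SD 0.34, 7 of 15 above it). These means of E(spl)m5-HLH and E(spl)m7-HLH are small beside their SDs. E(spl)mdelta-HLH stayed below it, by 0.30 in ftz mutants (14 of 15 arrays) and by 0.12 in eve mutants (11 of 15).

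With estimated age as a covariate, the hry difference over 6 to 10 h was 0.29 in eve mutants (SE 0.08, adjusted p = 0.00888) and none of the other calls of a mutant against wild type over these hours passed. At single times hry in eve mutants was then 0.50 higher at 8 h (adjusted p = 0.129) and 0.48 at 9 h (adjusted p = 0.0572). E(spl)mdelta-HLH in ftz mutants was then at -0.26 (adjusted p = 0.0979) and E(spl)m5-HLH in ftz mutants at -0.20 (adjusted p = 0.252). The part of a shift in developmental age in these differences was not tested beyond these values.

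**Figure D4:**
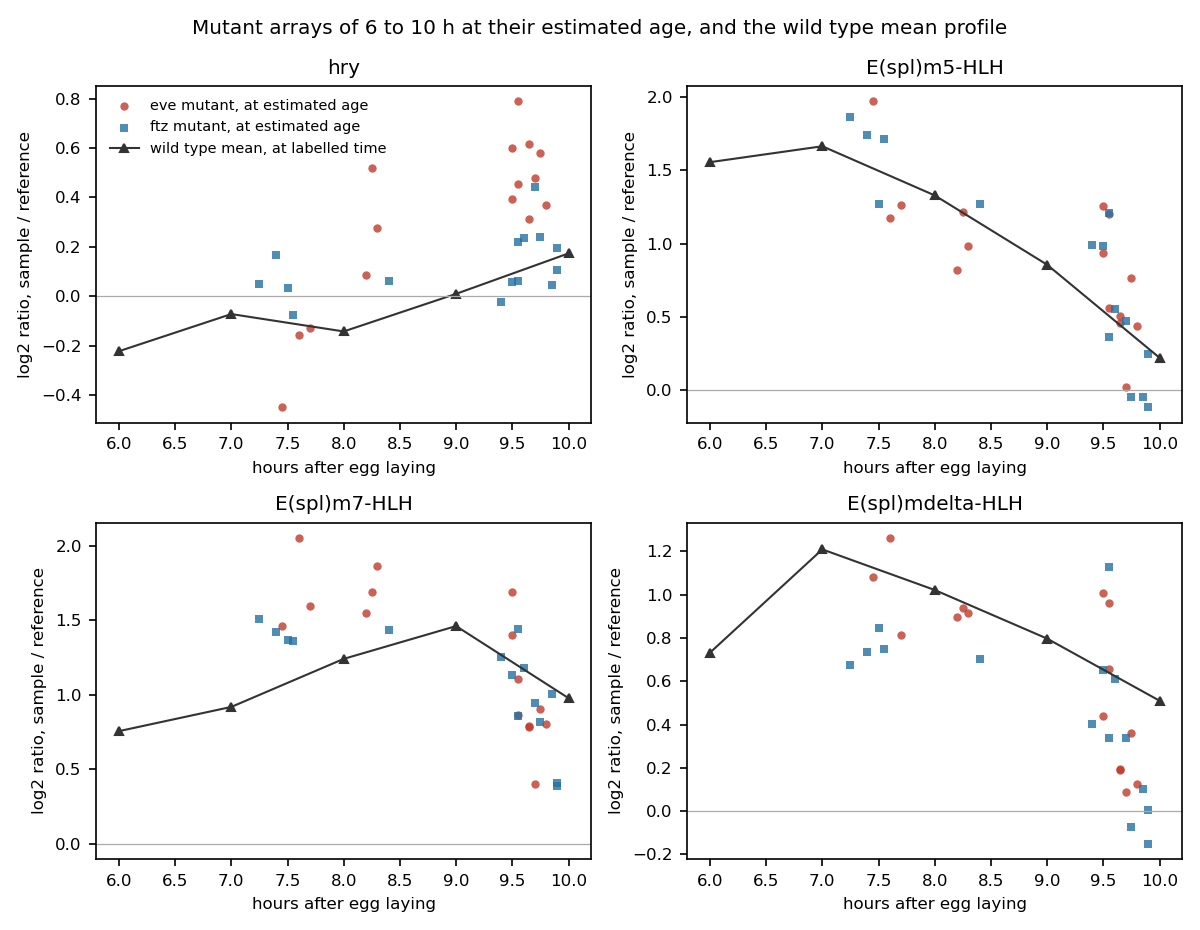
Log2 ratio of sample to reference (vertical axes) against hours after egg laying (horizontal axes), with mutant arrays of 6 to 10 h placed at their estimated age and the wild type mean profile at labelled times. On average E(spl)m5-HLH lay 0.09 above the profile in eve mutants (SD 0.37) and 0.06 above it in ftz mutants (SD 0.33). hry lay 0.29 above it in eve mutants (SD 0.27) and E(spl)mdelta-HLH 0.30 below it in ftz mutants (SD 0.29).

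The sample titles carry slide numbers that the labels do not explain, 47 different numbers for the 63 arrays, with 16 of them on 2 arrays each. Numbers at most 5 apart were joined into runs, some of which hold several genotypes, and whether a run is a batch is not stated. Within the run of slides 56 to 74, which held 8 eve and 9 wild type arrays of 6 to 10 h, the eve differences were 0.32 for hry, -0.29 for E(spl)m5-HLH, 0.11 for E(spl)m7-HLH and -0.18 for E(spl)mdelta-HLH. Within slides 59 to 71 at 2 h, with 3 ftz and 2 wild type arrays, the ftz differences were -0.63 for hry and 0.63 for E(spl)m7-HLH. The 3 eve arrays of that run gave -0.38 for hry at 2 h. Within slides 7 to 15, with 3 ftz and 2 wild type arrays of 6 and 7 h, E(spl)m7-HLH differed by 0.77, E(spl)m5-HLH by -0.31, hry by 0.14 and E(spl)mdelta-HLH by -0.14. No run held mutant and wild type arrays of 3 h, so that slide run and genotype cannot be told apart there by a within-run value. Nor did any run hold both ftz and wild type arrays of 8, 9 or 10 h. The same limit therefore holds for the ftz differences at these hours and for their part in the ftz results over 6 to 10 h. The arrays labelled eve at 3 h also shared no run with eve arrays of any other hour. Slide run and hour therefore cannot be told apart in the eve steps from 2 to 3 h and from 3 to 6 h. The ftz arrays of 3 h likewise shared no run with those of 6 h, and the same holds for the ftz step from 3 to 6 h.

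The E(spl) complex on chromosome arm 3R holds E(spl)mdelta-HLH, E(spl)m5-HLH and E(spl)m7-HLH among bHLH genes and genes of the Bearded family, small proteins that antagonise Neuralized, with gro (groucho) beside them. Kaz-m1 also lies within the complex. In the gene order of Release 6, E(spl)m5-HLH and E(spl)m7-HLH flank E(spl)m6-BFM, while E(spl)mdelta-HLH lies at the other end of the complex. hry lies on 3L. Of the other bHLH genes of the complex E(spl)m3-HLH and E(spl)mbeta-HLH were measured, and E(spl)mgamma-HLH and E(spl)m8-HLH were not analysed here.

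E(spl)m3-HLH and E(spl)mbeta-HLH, like E(spl)m7-HLH, were higher in both mutants at 6 h. At 6 h E(spl)m3-HLH averaged 0.92 ± 0.24 in eve mutants and 0.84 ± 0.13 in ftz mutants, against 0.04 ± 0.20 in wild type (SD, n = 3 each). E(spl)mbeta-HLH averaged 0.81 ± 0.55 in eve mutants and 0.60 ± 0.11 in ftz mutants, against -0.20 ± 0.03 in wild type. In eve and then ftz mutants the differences at 6 h were 0.88 and 0.81 for E(spl)m3-HLH (adjusted p = 0.000508 and 0.0014) and 1.01 and 0.80 for E(spl)mbeta-HLH (adjusted p = 0.00115 and 0.0111). Of the 5 measured bHLH genes of the complex 3 therefore passed as higher at 6 h in each mutant, beside 7.77% (eve) and 6.42% (ftz) of all features called, but E(spl)m3-HLH and E(spl)mbeta-HLH were looked up at this time after the result of E(spl)m7-HLH was known. In both mutants E(spl)m5-HLH and E(spl)mdelta-HLH did not pass.

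By 9 h wild type had reached 1.13 ± 0.46 for E(spl)m3-HLH and 0.86 ± 0.16 for E(spl)mbeta-HLH. The change of the difference over 6 to 10 h passed for E(spl)m3-HLH in eve (F = 6.27, adjusted p = 0.0342) and ftz mutants (F = 7.80, adjusted p = 0.0134). For E(spl)mbeta-HLH it passed in eve (F = 6.02, adjusted p = 0.0419) and not in ftz mutants (adjusted p = 0.3). At 2 h E(spl)mbeta-HLH was higher in eve mutants by 0.73 (SE 0.21, adjusted p = 0.00786), and at 3 h in ftz mutants by 0.62 (SE 0.21, adjusted p = 0.0347).

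Averaged over 6 to 10 h, 5 further genes of the Hairy and E(spl) class were measured of 9 listed. In eve mutants 3 were higher and 1 lower than in wild type, with a median difference of 0.24, beside 39.4% of all features called. The 3 were E(spl)m3-HLH (0.58, SE 0.08), E(spl)mbeta-HLH (0.38, SE 0.09) and cwo (0.24, SE 0.06), which encodes a repressor of the circadian clock. Hey, a Hairy-related Notch target, was the lower one (-0.22, SE 0.05). In ftz mutants the same 3 were higher, by 0.30, 0.30 and 0.18, with a median of 0.18 over the 5 genes, beside 40.4% called. Over all features the median difference was 0.00292 in eve and 0.00532 in ftz mutants.

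Bearded-family genes split. Of 7 measured of 8 listed, 3 were higher and 2 lower in eve mutants over 6 to 10 h, and 2 higher and 2 lower in ftz mutants. That is 5 and 4 of 7 genes, beside 39.4% and 40.4% of all features, with medians of 0.18 and -0.13. Brd (Bearded) was lower by 0.56 in eve mutants (SE 0.13, adjusted p = 0.000369) and by 1.06 in ftz mutants (SE 0.13, adjusted p = 3.9e-09). E(spl)malpha-BFM was lower by 0.23 in eve mutants (adjusted p = 0.024) and by 0.32 in ftz mutants (adjusted p = 0.00197). E(spl)m2-BFM was higher by 0.29 in eve and 0.16 in ftz mutants and E(spl)m6-BFM by 0.18 and 0.37. Ocho was higher by 0.26 in eve mutants (adjusted p = 0.0496) and had -0.22 in ftz mutants (adjusted p = 0.0882). E(spl)m6-BFM, between E(spl)m5-HLH and E(spl)m7-HLH, had its highest mean at 10 h in each genotype, after both neighbours had passed theirs.

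**Figure D5:**
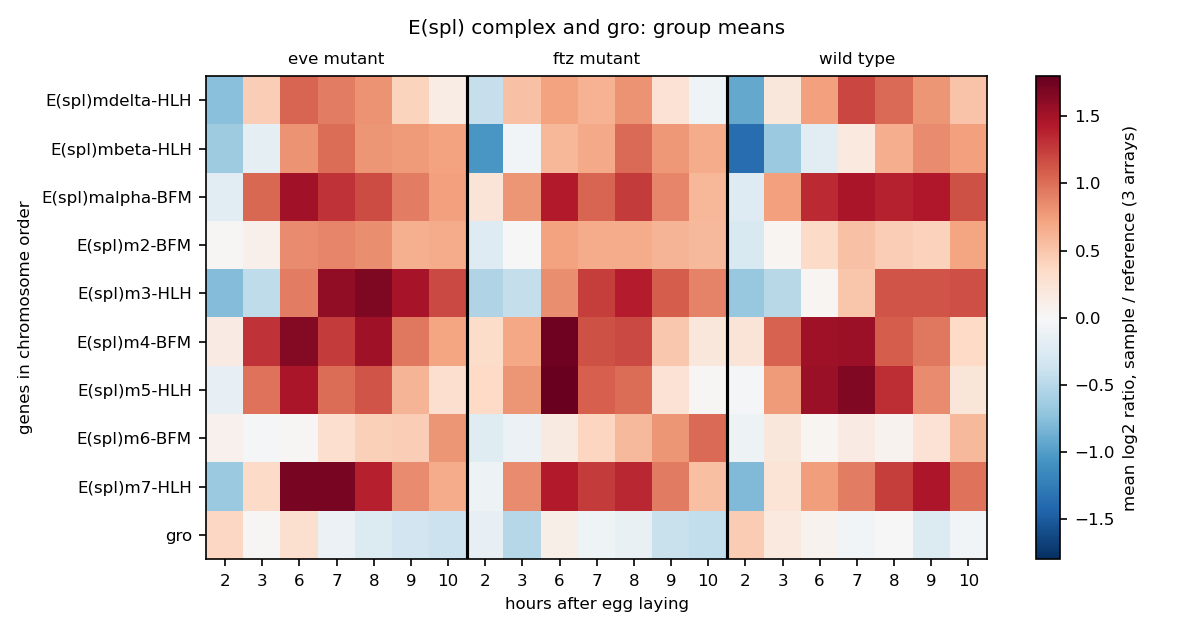
Mean log2 ratio of sample to reference over 3 arrays (colour) for measured bHLH and Bearded-family genes of the E(spl) complex and gro, in chromosome order (vertical axis), by genotype and hours after egg laying (horizontal axis). Kaz-m1, also measured in the complex, is not drawn. E(spl)m3-HLH, E(spl)mbeta-HLH and E(spl)m7-HLH were higher at 6 h in both mutants than in wild type, with E(spl)m3-HLH at 0.92 and 0.84, against 0.04.

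The genes whose 21 group means were most like those of a member were drawn from 2696 named genes with a span of at least 1 log2 unit. These correlations describe group means from shared arrays and share the course of development. For E(spl)m5-HLH the nearest was its neighbour E(spl)m4-BFM (r = 0.950), followed by CG7102, pdm2, WRNexo and FANCI. For E(spl)mdelta-HLH it was E(spl)malpha-BFM (r = 0.975), followed by CTCF, Rai1, E(spl)m7-HLH and SMC1. For E(spl)m7-HLH the order was Lip4 (r = 0.917), wun2, E(spl)malpha-BFM, CG2126 and E(spl)mdelta-HLH. A gene of the complex thus stood among the 5 nearest of each E(spl) member.

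For hry the nearest were CG46385 (r = 0.873), CG7029, Ank, Map205 and crb. Its own correlations with the E(spl) members were -0.39, -0.10 and -0.26 for E(spl)m5-HLH, E(spl)m7-HLH and E(spl)mdelta-HLH. Within each genotype they rest on 7 group means, and whether they differ between genotypes was not tested. Over the 7 means of wild type they were -0.93, -0.71 and -0.86 in the same order. In the arrays labelled eve they were -0.30, 0.02 and -0.08, and in ftz mutants -0.12, 0.26 and 0.01. Over the 21 group means E(spl)m7-HLH and E(spl)mdelta-HLH correlated with r = 0.903, E(spl)m5-HLH and E(spl)mdelta-HLH with 0.836, and E(spl)m5-HLH and E(spl)m7-HLH with 0.665. The deviations of single arrays from their group means gave r = 0.482 for E(spl)m7-HLH and E(spl)mdelta-HLH over the 63 arrays. They gave 0.241 for E(spl)m5-HLH and E(spl)mdelta-HLH and 0.024 for E(spl)m5-HLH and E(spl)m7-HLH.

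Of the corepressors of these proteins gro was lower in ftz mutants at 2 and 3 h. It was at -0.15 ± 0.04 in ftz mutants at 2 h and at -0.51 ± 0.07 at 3 h, against 0.46 ± 0.12 and 0.17 ± 0.21 in wild type (SD, n = 3). The differences were -0.61 (SE 0.12, adjusted p = 0.000711) and -0.68 (SE 0.12, adjusted p = 9.48e-05), at the same times at which hry was lower. CtBP, a corepressor bound by Hairy, was lower at 3 h in ftz mutants (-0.73, SE 0.20, adjusted p = 0.0102). At 2 h gro alone of the 3 measured passed in ftz mutants, and at 3 h 2 of the 3, beside 6.1% and 13.7% of all features. Over 6 to 10 h 3 of 3 measured corepressors were lower in ftz mutants, CtBP by 0.38, HDAC1 by 0.31 and gro by 0.13, and 1 of 3 in eve mutants, HDAC1 by 0.29, beside 40.4% (ftz) and 39.4% (eve) of all features called.

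Of 19 listed Notch pathway genes 7 were measured, and 3 of them passed over 6 to 10 h in each mutant, a share near the 39.4% (eve) and 40.4% (ftz) of all features called. neur (neuralized), a ubiquitin ligase for Notch ligands, was lower by 0.38 in eve (SE 0.08, adjusted p = 0.000109) and by 0.63 in ftz mutants (SE 0.08, adjusted p = 6.84e-09). O-fut1, which fucosylates Notch, was lower by 0.30 in eve and by 0.35 in ftz mutants. mam (mastermind), a coactivator of Suppressor of Hairless, was higher by 0.20 in eve mutants, and fng (fringe), a glycosyltransferase acting on Notch, by 0.35 in ftz mutants. At 2 h 3 of 7 were lower in ftz mutants, numb by 0.68, neur by 0.65 and H (Hairless) by 0.39, beside 6.1% of all features, and none passed in eve mutants (21.6%).

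Of the proneural genes and partners 3 of 8 were measured. da (daughterless), the common bHLH partner of proneural proteins, was lower in ftz mutants at 2 h (-0.43), at 3 h (-0.45) and over 6 to 10 h (-0.26). emc (extramacrochaetae), an antagonist of proneural proteins, was lower in ftz mutants at 3 h (-0.65) and over 6 to 10 h (-0.32), and in eve mutants at 2 h (-0.55). In the arrays labelled eve at 3 h emc (-0.52) and da (-0.41) were lower, 2 of 3 beside 9.57% of all features. ato (atonal), which specifies chordotonal organs, was lower in eve mutants over 6 to 10 h (-0.26).

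Among pair-rule genes, the class to which hry belongs, 5 of 6 measured were lower in eve mutants at 2 h, with a median difference of -0.69, beside 21.6% of all features called. They were eve (-1.71), ftz (-1.14), prd (-0.72), sob (-0.65) and odd (-0.50), against -0.32 for hry. In ftz mutants at 2 h prd (-0.75), eve (-0.67) and odd (-0.45) were lower, 3 of 6 beside 6.1% of all features, against -0.57 for hry. At 3 h none of the 6 passed in ftz mutants or in the arrays labelled eve.

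Markers of cell types differed in several directions over 6 to 10 h, and their counts stand beside 39.4% of all features called in eve and 40.4% in ftz mutants. The mean level of 4 neuroblast markers per array ran between 0.24 and 0.53 in eve mutants and between 0.16 and 0.82 in ftz mutants, against 0.00 to 0.80 in wild type. Of them SoxN and insc were higher and mira lower in both mutants. The 4 muscle markers ran between -2.16 and -1.19 in eve mutants and between -1.83 and -0.91 in ftz mutants, against -2.42 to -1.70 in wild type, and 3 of the 4 were higher in eve and 4 of 4 in ftz mutants. These are low values, and Mlc2 lay near the bottom of the scale. In eve mutants at 8 h it was at -3.23 with an SD of 0.0, where the lowest value of all arrays was -3.74. Of 5 neuron markers 1 was higher and 2 lower in eve mutants and 1 lower in ftz mutants, and of 2 glia markers none passed in eve and 1 was higher in ftz mutants. Of 8 maternal genes 5 were higher and 1 lower in eve mutants over these hours, against 0 and 1 in ftz mutants. The part of cell composition in the differences of the 4 genes was not tested.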

How the data were processed

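Total RNA of staged embryos was hybridised to 2-colour arrays, per the labels. The table the authors deposited holds 1 log2 ratio per row and array, and limma is the tool that the submitters' processing notes name, without a version. No source gives the base of the logarithm or which channel is the numerator. The deposited values are treated as log2 of sample over reference, which is likely: in wild type, 5 cellularization genes stood at a median of 1.32 at 2 h and of -1.62 at 10 h. All arrays held the same sorted values to within 0.000784, so they were already quantile normalized. Of 20000 rows 6772 were blank. How background was corrected and spots were filtered is not given in the sources used here.

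Rows of one symbol were averaged, giving 12424 features. A linear model with a mean for each of the 21 groups (42 residual degrees of freedom) was fitted with limma 3.58.1 in R 4.3.3, with empirical Bayes moderation. Tests are 2-sided, with Benjamini-Hochberg adjustment over all features within a contrast and a threshold of 0.05, and "called" or "passed" means below it. The model pools the spread over all groups, so 3 arrays against 3 can be tested. The script was tested on simulated data. The labels do not say whether the 3 arrays of a group stem from different collections. Their spread, which sets the p-values, may therefore be technical, and their number limits precision.

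Members and gene lists were chosen with earlier results of these data known. Named list genes are up to 4 per list past the threshold for each contrast of a mutant with wild type (2 h, 3 h, mean of 6 to 10 h), and the 5 named genes most like each member. Further values of genes of the E(spl) complex at single times were looked up afterwards. Age was estimated by correlation with the interpolated wild type profile, in steps of 0.05 h. Gene order comes from RefSeq (Release 6), and no sequence or coordinate is given because the build of the array is not stated. The alternatives tried are in the closing section.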

Additional observations from a re-analysis of the deposited data

Results flagged for a closer look

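By group means E(spl)m7-HLH lay above wild type at 6 h and below it at 9 h in both mutants. The change of its eve minus wild type difference over 6 to 10 h gave F = 12.99 (adjusted p = 0.000321), with 0.95 at 6 h and -0.61 at 9 h. The same test in ftz mutants gave F = 7.44 (adjusted p = 0.0168), with 0.67 at 6 h and -0.52 at 9 h. Both tests use the same wild type arrays. At 9 h the ftz difference missed the threshold, and the eve call ended when single replicates were left out, as given above. Wild type replicate 3 of 9 h correlated with replicates 1 and 2 at 0.541 and 0.510 across all features. In wild type the mean of E(spl)m7-HLH was 0.76 at 6 h and 1.46 at 9 h.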

How the results depend on the processing

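The number of the 4 genes called was recounted in 28 comparisons under other ways of processing. In 346 recounts it stayed within 1.5 times the reported count and in 71 it did not, and it stayed so in 9 under alternatives added after seeing the data. For eve minus wild type over 6 to 10 h (2 genes), the numbered series as a random block, times averaged into 3 values a genotype and the age covariate each gave 1. For eve minus wild type at 2 h (1), the row with the larger SD, the groups compared alone and adjustment over all contrasts gave 0. For ftz minus wild type, the age covariate gave 0 over 6 to 10 h (3), array weights gave 4 at 2 h (2), and slide runs and groups alone gave 1 at 3 h (2). For eve minus ftz over 6 to 10 h (1), averaging and slide runs gave 0, and centring on stable features, groups alone and array weights gave 2. At 3 h (1), slide runs gave 0 and array weights 2. For wild type between 3 and 6 h (1), the replicate block, slide runs, the row with the larger SD, array weights and adjustment over all contrasts gave 2. Between 8 and 10 h in wild type (1), slide runs gave 2 and age and groups alone 0. In the arrays labelled eve, slide runs gave 1 between 3 and 6 h (4) and age gave 0 between 6 and 8 h (1). Between 8 and 10 h (2), age and trended robust moderation gave 1 and groups alone 0. In ftz mutants, age and groups alone gave 0 between 6 and 8 h (1), and groups alone 0 between 8 and 10 h (3). For the eve difference between 3 and 2 h (0), array weights gave 1. For the change over 6 to 10 h, the random block, slide runs, the row with the larger SD, array weights and all contrasts gave 2 in eve (1), and groups alone 0 in ftz (1).

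Without single replicates the counts ran as follows. They were 1 to 4 for eve minus wild type over 6 to 10 h, 0 to 1 at 2 h, 2 to 3 for ftz minus wild type over 6 to 10 h, 1 to 3 at 2 h and 1 to 2 at 3 h. For eve minus ftz they were 0 to 2 over 6 to 10 h, 0 to 2 at 2 h and 1 to 2 at 3 h. Between 3 and 6 h they were 1 to 3 in eve and 0 to 2 in wild type. Between 8 and 10 h they were 0 to 2 in eve and 1 to 3 in ftz, between 6 and 8 h 0 to 1 in ftz, and for the change over 6 to 10 h 0 to 1 in ftz.

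Among values past the threshold, signs turned in 4. They include E(spl)m5-HLH between 3 and 6 h in eve with slide runs (-0.10) and hry in that step on row 8399 (0.24). The others were E(spl)m5-HLH set against the wild type profile at its estimated age, 0.095 in eve (SD 0.37) and 0.063 in ftz (SD 0.33). The E(spl)m7-HLH difference in ftz, which had not passed (0.03), was then -0.03. The cause was not tested. The array numbers in the titles did not pair samples across genotypes, since deviations of same-numbered arrays correlated with r between -0.260 and 0.111 (33 pairs, 1 above 0.1). The replicate block changed 1 count, given above, and for E(spl)m7-HLH the eve difference of 0.19 over 6 to 10 h passed with it (adjusted p = 0.0331).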
